A study of Homo sapiens with 6 samples.

Results

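Metallothioneins are small cysteine-rich proteins that bind zinc and copper, and their genes lie side by side on chromosome 16. The 6 genes described here, MT1E, MT1F, MT1G, MT1M, MT1X and MT2A, were found by symbol among the 26475 genes of the deposited table of TPM over all libraries, and all 6 were listed. TPM is a length-normalised share of the transcripts of a library. The genes were selected on their TPM in these same libraries, so their levels and differences are a description and carry no test. Genes outside this choice were tested.

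In the cell, metallothioneins hold zinc and copper in clusters of metal ions and thiols and release them to other proteins, and they take up toxic metals such as cadmium. Their transcription is switched on by MTF1, a zinc finger factor that senses free zinc and binds metal response elements in the promoters, and also by glucocorticoids and oxidants. MT2A is usually the most abundant form in human epithelial cells, and metallothionein levels in tumours have been studied for their link with drug and oxidant tolerance.

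Cells of 3 kinds were sequenced for messenger RNA, each in 2 libraries and all in the culture named MGS: the lung cancer line PC9, PC9-BrM4 and PC9-AMG. PC9 was established from a lung adenocarcinoma whose EGFR carries an activating mutation, and the names of the others mark them as its derivatives. BrM4, AMG and MGS are not spelled out in the labels; from what is known of the work, MGS places the cancer cells on a soft support together with glia of the mouse. Since separate cultures are not stated for libraries of a line, the p-values cover library-to-library spread, which may be technical, and each derivative is a single line.

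Read counts were not analysed here, which leaves the depth unknown; the per-base coverage that corresponds to 1 TPM lay between 0.606 and 0.822 reads. Differences are between group means of log2(TPM + 1). The limma test was run on 14627 genes, those that reached 1 TPM in 2 or more libraries. A gene was called, or "rose" or "fell", at a Benjamini-Hochberg adjusted p under 0.05. The calls covered 16.3% of the tested genes in PC9-BrM4 against PC9, 7.49% in PC9-AMG against PC9 and 18.6% in PC9-AMG against PC9-BrM4. The comparisons share libraries and are not independent of each other. The median difference of all tested genes was 0.09, -0.05 and -0.13 in these comparisons, and median centring turned the split of calls in PC9-BrM4 from 1446 higher and 943 lower to 917 higher and 1293 lower, in PC9-AMG against PC9 from 537 and 559 to 685 and 436, and in PC9-AMG against PC9-BrM4 from 923 and 1797 to 1606 and 900. Quantile normalization gave 1088 and 1253, 671 and 561, and 1326 and 1137, and FPKM 1271 and 1045, 902 and 561, and 1341 and 1283, in the same order. A list of 10 lung epithelial genes, most of it the keratins KRT7, KRT8, KRT18 and KRT19, summed to between 15447 and 15711 TPM in PC9, 11715 and 12082 TPM in PC9-BrM4 and 13452 and 13982 TPM in PC9-AMG. SFTPB was listed at 0 in all 6 libraries, and NKX2-1 and NAPSA, other markers of lung lineage, did not exceed 1.69 TPM.

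The coding sequences of the 4 abundant members are shown because their likeness limits how reads can be told apart. They are read 5′ to 3′ from GENCODE release 29 (GRCh38), and capitals mark the cysteine codons TGC and TGT in frame.
MT2A: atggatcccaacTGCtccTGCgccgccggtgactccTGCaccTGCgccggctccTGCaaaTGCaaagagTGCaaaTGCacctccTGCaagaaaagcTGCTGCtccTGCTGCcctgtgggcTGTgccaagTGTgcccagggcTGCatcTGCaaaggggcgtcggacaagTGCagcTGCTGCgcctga
MT1X: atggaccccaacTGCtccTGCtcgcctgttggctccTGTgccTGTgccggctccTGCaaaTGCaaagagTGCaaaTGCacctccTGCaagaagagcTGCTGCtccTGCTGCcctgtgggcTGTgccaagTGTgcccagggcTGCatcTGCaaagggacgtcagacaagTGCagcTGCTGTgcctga
MT1E: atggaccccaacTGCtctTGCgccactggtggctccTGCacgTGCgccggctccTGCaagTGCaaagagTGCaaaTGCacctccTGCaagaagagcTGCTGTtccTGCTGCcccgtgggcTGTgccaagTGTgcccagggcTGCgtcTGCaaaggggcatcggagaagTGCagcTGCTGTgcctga
MT1F: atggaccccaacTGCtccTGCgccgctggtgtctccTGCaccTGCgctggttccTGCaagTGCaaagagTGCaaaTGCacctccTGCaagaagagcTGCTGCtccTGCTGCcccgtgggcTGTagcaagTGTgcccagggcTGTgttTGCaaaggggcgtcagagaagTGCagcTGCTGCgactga
For each gene, MT1G and MT1M included, 1 annotated transcript was used, that with a reading frame of 186 bases with the stop codon in 3 exons, in which 20 of the 61 codons before the stop encode cysteine. Genes other than MT1M also have annotated transcripts with other frames, which were not compared. MT2A and MT1X shared 92.5% of their coding bases, and MT1F and MT1X 88.7%, the lowest among the 6 genes. The longest run of identical bases between the transcripts used was 96, between MT1G and MT1X. Among the 4 printed genes it was 63, between MT1X and MT2A. How the authors' tools assigned reads that fit more than 1 of these genes is not stated, so the level of each single gene is less certain than that of their sum.

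MT2A, the leading form, lies on the plus strand of chromosome 16 (chr16:56608566-56609497 in hg38, the build of the files). It was at 661 and 627 TPM in PC9, 320 and 320 TPM in PC9-BrM4 and 775 and 812 TPM in PC9-AMG. The 3 groups did not overlap, with PC9-BrM4 lowest and PC9-AMG highest. The means were 644 ± 24.6, 320 ± 0.332 and 793 ± 25.6 TPM (SD, n = 2 each), so PC9-BrM4 was at 0.497 and PC9-AMG at 1.23 of the PC9 mean. By rank among all genes of a library, MT2A stood at 204 and 213 in PC9, 481 and 478 in PC9-BrM4 and 181 and 174 in PC9-AMG. In bulk RNA, fewer cells with a transcript and less of it per cell cannot be told apart.

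MT1X, the next most abundant form, lies at the far end of the cluster (chr16:56682470-56684196, plus strand). It was at 188 and 172 TPM in PC9, 90.4 and 98.6 TPM in PC9-BrM4 and 246 and 256 TPM in PC9-AMG. Here too the groups were apart in the order PC9-BrM4, PC9, PC9-AMG. The means were 180 ± 11.3, 94.5 ± 5.85 and 251 ± 7.32 TPM (SD, n = 2 each). The PC9-BrM4 mean was 0.526 of the PC9 mean, the PC9-AMG mean 1.40 of it and 2.66 times that of PC9-BrM4.

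MT1E (chr16:56625673-56627113, plus strand) was at 29.3 and 29.4 TPM in PC9, 13.6 and 14.5 TPM in PC9-BrM4 and 35.5 and 27.6 TPM in PC9-AMG. Its PC9-BrM4 values lay below all others, while those of PC9-AMG fell on either side of PC9. The means were 29.3 ± 0.0658, 14.1 ± 0.681 and 31.5 ± 5.61 TPM (SD, n = 2 each). The log2 difference of PC9-AMG from PC9 was 0.09, and without PC9-AMG library 1 it was -0.09.

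MT1F (chr16:56657943-56659303, plus strand) was at 21.3 and 20.5 TPM in PC9, 11.3 and 19.1 TPM in PC9-BrM4 and 21.3 and 30.4 TPM in PC9-AMG. Its libraries lay far apart within each derivative for its level. The means were 20.9 ± 0.541, 15.2 ± 5.50 and 25.9 ± 6.45 TPM (SD, n = 2 each). Its log2 difference between PC9-BrM4 and PC9 was -0.47, and it was -0.12 without PC9-BrM4 library 1 and -0.83 without library 2. Between PC9-AMG and PC9 the difference was 0.28, with 0.52 without PC9-AMG library 1 and 0.03 without library 2. For PC9-AMG against PC9-BrM4 it was 0.75, with 0.40 and 1.1 without PC9-BrM4 library 1 and 2, and 1.0 and 0.50 without PC9-AMG library 1 and 2.

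MT1G (chr16:56666735-56668065), the only member on the minus strand, was listed at 0 in 5 libraries and at 1.57 TPM in PC9-BrM4 library 1, with a coverage of 1.0 reads per base. MT1M (chr16:56632622-56633986, plus strand) was listed at 0 in all 6 libraries. Neither passed the filter on low values. Of the 4 that did, PC9-BrM4 lay below PC9 without overlap for 4 and above it for 0 (21.9% and 39.2% of all tested genes). PC9-AMG lay above PC9 without overlap for 3 and below it for 0 (24.8% and 35.0%), with MT1F apart by less than the rounding of its TPM. PC9-AMG lay above PC9-BrM4 for 4 and below it for 0 (19.0% and 40.5%). These values chose the genes, and nothing is read from the counts.

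**Figure D1:**
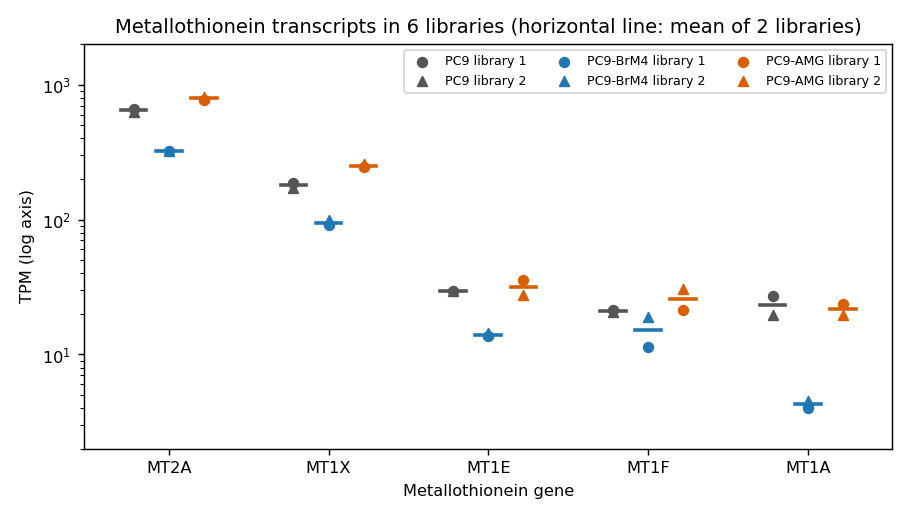
TPM (log axis) of MT2A, MT1X, MT1E, MT1F and MT1A in each of the 6 libraries, with circles for library 1, triangles for library 2 and a line for the mean of the 2. The PC9-BrM4 values lie below those of PC9 for each gene, from 320 against 644 TPM in the mean of MT2A to 4.28 against 23.4 TPM in that of MT1A.

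The summed TPM of the 6 members was 899.6 and 848.2 in PC9, 437.0 and 451.9 in PC9-BrM4 and 1078 and 1126 in PC9-AMG. The libraries of a line differed little beside the distance between lines. The means were 873.9 ± 36.4, 444.5 ± 10.6 and 1102 ± 33.7 TPM (SD, n = 2 each), a log2 ratio to PC9 of -0.98 in PC9-BrM4 and 0.33 in PC9-AMG, and of 1.31 between PC9-AMG and PC9-BrM4. The make-up of the sum was alike in the 6 libraries. MT2A supplied between 70.7% and 73.9%, MT1X between 20.2% and 22.8%, MT1E between 2.45% and 3.46% and MT1F between 1.98% and 4.23%. The ratio of MT2A to MT1X stayed between 3.15 and 3.65.

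The per-base coverage behind these values was between 194 and 638 reads for MT2A, 57.5 and 202 for MT1X, 8.64 and 29.2 for MT1E and 6.58 and 20.8 for MT1F, so the 2 abundant forms rest on many more reads than the others. Metallothionein transcripts are short, and the median difference between lines varied with transcript length, least in PC9-BrM4 against PC9. Among tested genes under 800 bases, members left out, the median log2 difference was 0.05 in PC9-BrM4 against PC9 (n = 1016), against 0.09 in the class of the longest transcripts. In PC9-AMG against PC9 the corresponding medians were 0.02 and -0.16, and in PC9-AMG against PC9-BrM4 they were -0.02 and -0.23. With the trend with length removed, a setting chosen after the data were seen, MT2A was at -1.02 in PC9-BrM4 and 0.20 in PC9-AMG on the log2 scale, against -1.01 and 0.30.

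**Figure D2:**
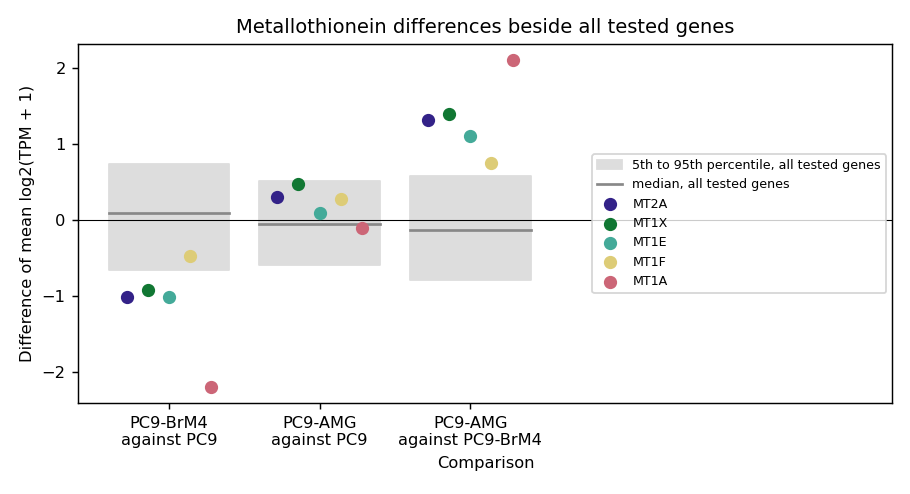
Differences of mean log2(TPM + 1) of MT2A, MT1X, MT1E, MT1F and MT1A in the 3 comparisons, with the median and the 5th to 95th percentile of all 14627 tested genes in grey. In PC9-BrM4 against PC9, MT2A (-1.01), MT1X (-0.92), MT1E (-1.01) and MT1A (-2.19) lie below the 5th percentile of -0.65, and in PC9-AMG against PC9 each lies within the grey band.

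MT1A, a metal-induced form within the cluster that is not one of the 6 genes, fell in PC9-BrM4 and did not differ detectably in PC9-AMG. On chr16:56638666-56640088 it was at 27.2 and 19.5 TPM in PC9, 4.0 and 4.55 TPM in PC9-BrM4 and 23.6 and 19.7 TPM in PC9-AMG. The PC9-BrM4 libraries lay below all others, and those of PC9 and PC9-AMG overlapped. The log2 difference from PC9 was -2.19 (SE 0.18, limma adjusted p = 5.35e-05) in PC9-BrM4 and -0.10 (SE 0.18, adjusted p = 0.786) in PC9-AMG. PC9-AMG was above PC9-BrM4 by 2.1 (adjusted p = 9.26e-05). The PC9-BrM4 calls held whichever library was left out, with an adjusted p of at most 0.00343 against PC9 and 0.00491 against PC9-AMG. The ratio of MT1A to MT1E was 0.929 and 0.665 in PC9, 0.295 and 0.313 in PC9-BrM4 and 0.664 and 0.713 in PC9-AMG. Its coverage in PC9-BrM4 was 2.55 and 2.76 reads per base, and whether shared reads were split differently between the lines was not tested.

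Of the other metallothionein genes, MT3, the form best known from brain, and MT4, that of stratified epithelium, were listed at 0 in every library. So were MT1B, MT1L, MT1HL1, MT1IP and MT1JP. MT1H was at 2.92 TPM in PC9-AMG library 1 and 0 in the other 5, and the pseudogene MT1DP reached at most 1.12 TPM.

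The promoters of MT2A and MT1X are shown because these are the most abundant members, and their levels were ordered alike across the lines. They were taken from the table of RefSeq promoters used here (GRCh38.p14), in which these 2 of the 6 members were matched, and MT1E, MT1F, MT1G and MT1M were not. The 250 bases upstream of the start annotated there are printed 5′ to 3′ on the plus strand, chr16:56608334-56608583 for MT2A and chr16:56682220-56682469 for MT1X. By the MT2A coordinates given above, which start at 56608566, the last of its printed bases lie within the gene. Capitals mark matches, on either strand, to the core of the metal response element (MRE), TGCACNC or TGCGCNC.
MT2A: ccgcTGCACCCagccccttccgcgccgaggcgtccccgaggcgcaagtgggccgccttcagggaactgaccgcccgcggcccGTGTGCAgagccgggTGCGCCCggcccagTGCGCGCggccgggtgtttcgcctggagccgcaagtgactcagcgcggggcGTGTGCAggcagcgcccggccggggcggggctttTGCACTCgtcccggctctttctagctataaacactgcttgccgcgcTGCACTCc
MT1X: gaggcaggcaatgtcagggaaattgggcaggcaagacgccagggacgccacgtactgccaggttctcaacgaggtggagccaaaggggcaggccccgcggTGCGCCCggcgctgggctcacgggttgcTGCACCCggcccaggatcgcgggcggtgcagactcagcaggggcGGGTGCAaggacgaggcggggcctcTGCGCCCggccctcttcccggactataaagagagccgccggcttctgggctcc
MT2A had 7 MRE matches and MT1X had 4. The MT2A match at bases 8 to 2 upstream of the RefSeq start lies within the gene by the coordinates given above. Of 35116 promoters of the same length, 24.8% held at least 1 match, 0.37% at least 4 and 0.0513% at least 6. The nearest MRE match upstream of the TATA motif covered bases 54 to 48 upstream of the start in MT2A and 53 to 47 in MT1X. TATAAA itself, found in 10.7% of promoters, began 29 and 30 bases upstream. The GC box letters GGGCGG occurred 2 times in each (at least 2 in 24.3% of promoters), and 1 of those in MT1X overlapped an MRE match.

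MT2A also held the AP-1 letters TGACTCA (4.20% of promoters), overlapping a match to the antioxidant response element core TGACNNNGC (10.9%), and MT1X had no AP-1 match and 1 of the latter. Genes with little or no TPM held matches too: MT1H, at 0 in 5 libraries, had 8 MRE matches, and MT1B and MT4, at 0 in all 6, had 3 each. Thus the number of matches did not follow the TPM of these 5 genes, and no match was tested for binding.

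**Figure D3:**
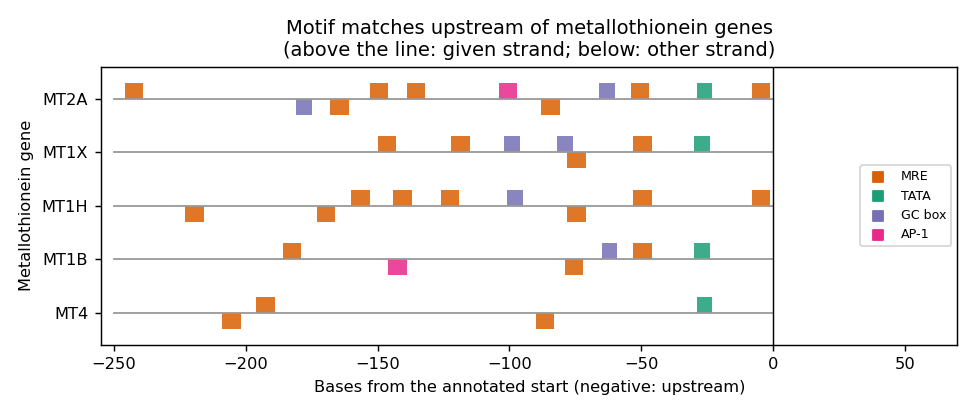
Positions of matches to the MRE core, TATAAA, the GC box and the AP-1 letters in the 250 bases upstream of the 5 metallothionein genes with a RefSeq promoter entry, as distance from the annotated start; marks above a line are on the given strand, marks below on the other. MT2A has 7 MRE marks, MT1X 4, and MT1H, listed at 0 in 5 of the 6 libraries, 8.

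Some neighbours of the cluster were called, in both directions, and nothing is read from the counts. Of 23 tested genes within 1 Mb that are no metallothioneins, 4 rose and 2 fell in PC9-BrM4 against PC9 (9.89% and 6.45% of all tested genes did). The median log2 difference of the 23 genes was 0.23, against 0.09 for all tested genes. In PC9-AMG against PC9, 2 rose and 2 fell (3.67% and 3.82%), and 2 were higher and 3 lower in PC9-AMG than in PC9-BrM4 (6.31% and 12.3%). The nearest tested neighbours on each side, the cilium gene BBS2 and the nuclear pore gene NUP93, named for their position, were not called in PC9-BrM4 (log2 differences -0.03 and 0.23, adjusted p = 0.880 and 0.192).

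The carboxylesterase gene CES1 (chr16:55802852-55833163) was at 86.5 and 90.1 TPM in PC9, 10.6 and 11 TPM in PC9-BrM4 and 43.5 and 31.9 TPM in PC9-AMG. It fell in both derivatives, by 2.92 (limma adjusted p = 2.18e-06) and by 1.22 (adjusted p = 0.00280). The G protein subunit gene GNAO1 was at 3.73 and 2.86 TPM in PC9 and, under 1 TPM, at 0.951 and 0.478 TPM in PC9-BrM4. It fell in PC9-BrM4 (-1.33, limma adjusted p = 0.00700), by a difference between -2.11 and -0.9 over the settings run. On the other side, PLLP, which encodes the membrane protein plasmolipin, rose there from 1.3 ± 0.0806 to 8.57 ± 0.411 TPM (SD, n = 2 each; log2 difference 2.06, limma adjusted p = 0.000323). These calls held whichever library was left out. The chemokine gene CX3CL1 was listed at 0 in PC9 and at 1.67 and 1.01 TPM in PC9-BrM4, a call lost without PC9 library 1 (adjusted p = 0.0606) or 2 (0.0560).

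CIAPIN1 and HERPUD1 rose in both derivatives against PC9, by 0.48 and 0.39 in PC9-BrM4 and by 0.58 and 0.63 in PC9-AMG, and CPNE2 fell in PC9-AMG (-0.50). Each of these calls was lost when at least 1 library was left out. In PC9-BrM4 they were lost without either PC9 library or PC9-BrM4 library 1 (adjusted p between 0.0595 and 0.288). In PC9-AMG they were lost without either PC9 library or PC9-AMG library 2 (0.0639 to 0.242), and CIAPIN1 also without PC9-AMG library 1 (0.0516). Between PC9-AMG and PC9-BrM4, CES1 (1.70) and GNAO1 (0.84) were higher and PLLP (-1.83), CX3CL1 (-1.15) and the noradrenaline transporter gene SLC6A2 (-0.79) lower in PC9-AMG. The calls of GNAO1 and SLC6A2 were lost on leaving out any 1 of the 4 libraries (adjusted p from 0.0669 to 0.185), and that of CX3CL1 without PC9-AMG library 1 (0.0548) or 2 (0.0791).

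**Figure D4:**
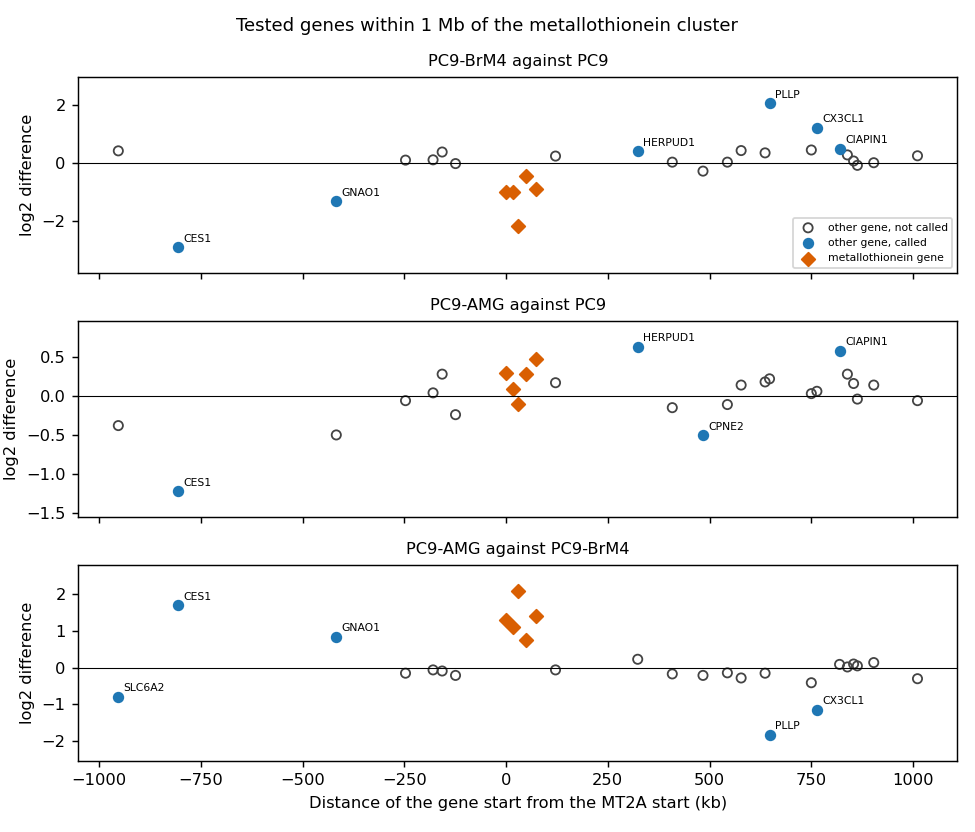
Difference of mean log2(TPM + 1) against distance of the gene start from the start of MT2A, in kb, for the tested genes within 1 Mb of the cluster in the 3 comparisons; diamonds are metallothionein genes, filled circles called and open circles uncalled other genes. In PC9-BrM4 against PC9 the metallothioneins lie between -2.19 and -0.47, CES1 at -2.92 and PLLP at 2.06.

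None of 8 regulators of metallothionein genes was called by limma in any comparison. Of all tested genes, 16.3% were called in PC9-BrM4 against PC9, 7.49% in PC9-AMG against PC9 and 18.6% in PC9-AMG against PC9-BrM4. Of the 8 regulators, 0 had an unadjusted p under 0.05 in PC9-BrM4 against PC9 and in PC9-AMG against PC9-BrM4. In PC9-AMG against PC9, 2 did, SP1 (-0.39) and STAT3 (-0.27). The share of all tested genes at an unadjusted p under 0.05 is not given, and nothing is read from these counts. MTF1, the zinc sensor, was at 6.94 and 7.0 TPM in PC9, 10.2 and 7.57 TPM in PC9-BrM4 and 8.55 and 7.77 TPM in PC9-AMG. Its values in the derivatives overlapped each other and lay above those of PC9, and the log2 difference of PC9-BrM4 from PC9 was 0.30 (SE 0.18, adjusted p = 0.291). The glucocorticoid receptor gene NR3C1 differed by -0.06 in PC9-BrM4 and -0.31 in PC9-AMG (adjusted p = 0.814 and 0.225).

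Zinc exporters and importers are given by their counts and values, and nothing is read from the counts. Of 6 tested zinc exporters 0 were called by limma in PC9-BrM4 against PC9 (1 at an unadjusted p under 0.05) and 0 in PC9-AMG against PC9 (0 unadjusted). Over all tested genes the shares called in either direction were 16.3% and 7.49%, and no share at an unadjusted p is given. In PC9-AMG against PC9-BrM4, 0 exporters were higher and 1 was lower (6.31% and 12.3% of all tested genes). SLC30A1, the plasma membrane exporter that MTF1 also controls, was at 19.8 and 18.3 TPM in PC9, 37.5 and 24.5 TPM in PC9-BrM4 and 13.5 and 19.4 TPM in PC9-AMG. Its values were highest in PC9-BrM4, the line with the lowest metallothionein TPM. The difference of PC9-BrM4 from PC9 was 0.64 (adjusted p = 0.0692), and PC9-AMG was lower than PC9-BrM4 by -0.86 (adjusted p = 0.0214), a call lost without PC9-BrM4 library 1 (0.154) or PC9-AMG library 1 (0.130).

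Of 12 tested zinc importers, 1 fell in PC9-BrM4 against PC9, namely SLC39A11 (-0.36, adjusted p = 0.0316), and was not called whichever of the 4 libraries was left out (0.0693 to 0.321); 4 had an unadjusted p under 0.05. In PC9-AMG against PC9 limma called 0 (4 at an unadjusted p under 0.05). Over all tested genes the shares called in either direction were 16.3% and 7.49%, and no share at an unadjusted p is given. In PC9-AMG against PC9-BrM4, 0 importers were higher and 1 was lower (6.31% and 12.3% of all tested genes). SLC39A10, an importer at the plasma membrane, was lower in PC9-AMG than in PC9-BrM4 (-0.57, adjusted p = 0.0333), a call lost without PC9-BrM4 library 1 (0.145) or PC9-AMG library 1 (0.115) or 2 (0.0909), and with median centring (0.0685).

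Copper genes moved in both directions. Of 14 tested copper-handling genes, 3 rose and 2 fell in PC9-BrM4 and 2 rose and 2 fell in PC9-AMG, each against PC9. Over all tested genes the shares were 9.89% and 6.45%, and 3.67% and 3.82%, and nothing is read from the counts. ATOX1, the copper chaperone of the secretory pathway, was at 140 and 143 TPM in PC9, 195 and 214 TPM in PC9-BrM4 and 216 and 225 TPM in PC9-AMG. It rose in both, by 0.53 (SE 0.09, limma adjusted p = 0.00366) and 0.64 (adjusted p = 0.00523), and these calls held whichever library was left out. The transporter gene SLC31A2 rose by 0.71 and 0.65, and the metalloreductase gene STEAP2 fell by 0.94 in PC9-BrM4 and by 0.90 in PC9-AMG. Without PC9 library 2 neither was called in PC9-BrM4 (adjusted p = 0.0555 and 0.0636). In PC9-AMG, SLC31A2 was not called without PC9 library 1 (0.0958) or 2 (0.151) or PC9-AMG library 2 (0.111), nor STEAP2 without any 1 of the 4 libraries (0.0715 to 0.139).

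The other copper calls were weaker. COX17, a copper chaperone of the mitochondrion, fell in PC9-BrM4 (-0.41, adjusted p = 0.0364), COX11 rose there (0.45, adjusted p = 0.0462) and the efflux pump gene ATP7A fell in PC9-AMG (-0.80, adjusted p = 0.0493). All 3 were uncalled on leaving out any 1 of the 4 libraries (adjusted p from 0.0656 to 0.432). In PC9-AMG against PC9-BrM4, COX17 (0.48) and SCO2 (0.69) were higher and 0 were lower (6.31% and 12.3% of all tested genes). Both calls were lost without PC9-BrM4 library 1 (0.114 and 0.0664) or PC9-AMG library 2 (0.0748 and 0.0598).

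Glucocorticoid-responsive genes were split. Of 9 tested, 0 rose and 2 fell in PC9-BrM4, and 1 rose and 2 fell in PC9-AMG, each against PC9. In PC9-AMG against PC9-BrM4, 2 were higher and 2 lower. Over all tested genes the shares were 9.89% and 6.45%, 3.67% and 3.82%, and 6.31% and 12.3%, in the same order. KLF9, a zinc finger repressor induced by glucocorticoids, was at 8.36 and 8.45 TPM in PC9, 1.34 and 1.03 TPM in PC9-BrM4 and 5.04 and 6.48 TPM in PC9-AMG. It fell in PC9-BrM4 (-2.11, SE 0.19, limma adjusted p = 0.000114) and was higher in PC9-AMG than in PC9-BrM4 (1.63, adjusted p = 0.000591), whichever library was left out. CEBPD fell in PC9-BrM4 (-0.58, adjusted p = 0.00998), which did not pass when PC9 library 2 (0.122) or PC9-BrM4 library 1 (0.0655) was left out, and was higher in PC9-AMG than there (0.54), lost without PC9-BrM4 library 1 (0.0901) or PC9-AMG library 2 (0.0721).

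FKBP5, the textbook glucocorticoid target, was at 1.74 and 0.878 TPM in PC9, 2.91 and 1.97 TPM in PC9-BrM4 and 2.04 and 1.80 TPM in PC9-AMG and was not called. In PC9-AMG against PC9, the glutamine synthetase gene GLUL fell by 0.75 (adjusted p = 0.00598), whichever library was left out. TSC22D3 fell there (-0.61) and DUSP1 rose (0.31), calls lost without either PC9 library or PC9-AMG library 1 (adjusted p between 0.0617 and 0.314), and for DUSP1 also without PC9-AMG library 2 (0.105). Against PC9-BrM4, GLUL (-0.48) was lower in PC9-AMG, lost without PC9-BrM4 library 1 (0.0639), as was ERRFI1 (-0.33), lost without that library (0.210) or PC9-AMG library 1 (0.126) or 2 (0.0863).

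Among 12 metal- and oxidant-induced genes, 2 rose and 2 fell in PC9-BrM4, and 1 rose and 2 fell in PC9-AMG, each against PC9. Over all tested genes the shares were 9.89% and 6.45%, and 3.67% and 3.82%. GCLM, the modifier subunit of the enzyme that starts glutathione synthesis, was at 146 and 141 TPM in PC9, 79.5 and 71.9 TPM in PC9-BrM4 and 113 and 148 TPM in PC9-AMG. It fell in PC9-BrM4 (-0.92, SE 0.13, limma adjusted p = 0.00131), whichever library was left out, while its catalytic partner GCLC rose (0.48, adjusted p = 0.0168), which did not pass when PC9 library 1 (0.0629), PC9 library 2 (0.139) or PC9-BrM4 library 1 (0.0854) was left out. HMOX1, the heme oxygenase that cadmium and oxidants induce, was at 22.1 and 23.0 TPM in PC9, 16.7 and 14.3 TPM in PC9-BrM4 and 25.5 and 23.6 TPM in PC9-AMG. It fell in PC9-BrM4 (-0.52, adjusted p = 0.0267), which no longer passed when PC9 library 1 (0.137), PC9 library 2 (0.197) or PC9-BrM4 library 2 (0.0802) was left out. SQSTM1 rose there by 0.25 (adjusted p = 0.0381) and was not called with median centring (0.407) or without any 1 of the 4 libraries (0.0629 to 0.332).

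Between PC9-AMG and PC9-BrM4, 3 of these genes were higher and 3 lower (6.31% and 12.3% of all tested genes). GCLM (0.77), SRXN1 (0.52) and HMOX1 (0.63) were higher in PC9-AMG, and GCLC (-0.84) and the heat shock genes HSPA1A (-0.44) and HSPA1B (-0.38) lower. Of these, HMOX1 lost its call without PC9-AMG library 1 (adjusted p = 0.0528). HSPA1B lost it without either PC9-BrM4 library (0.0823 and 0.0557) or PC9-AMG library 2 (0.0692), and both heat shock genes did with median centring (0.120 and 0.230); their sequences are near-identical and reads may be shared. Against PC9, SRXN1 rose (0.35) and HSPA1A (-0.44) and HSPA1B (-0.43) fell in PC9-AMG, calls lost without either PC9 library or PC9-AMG library 2 (adjusted p between 0.0678 and 0.269), and for SRXN1 also without PC9-AMG library 1 (0.0930).

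**Figure D5:**
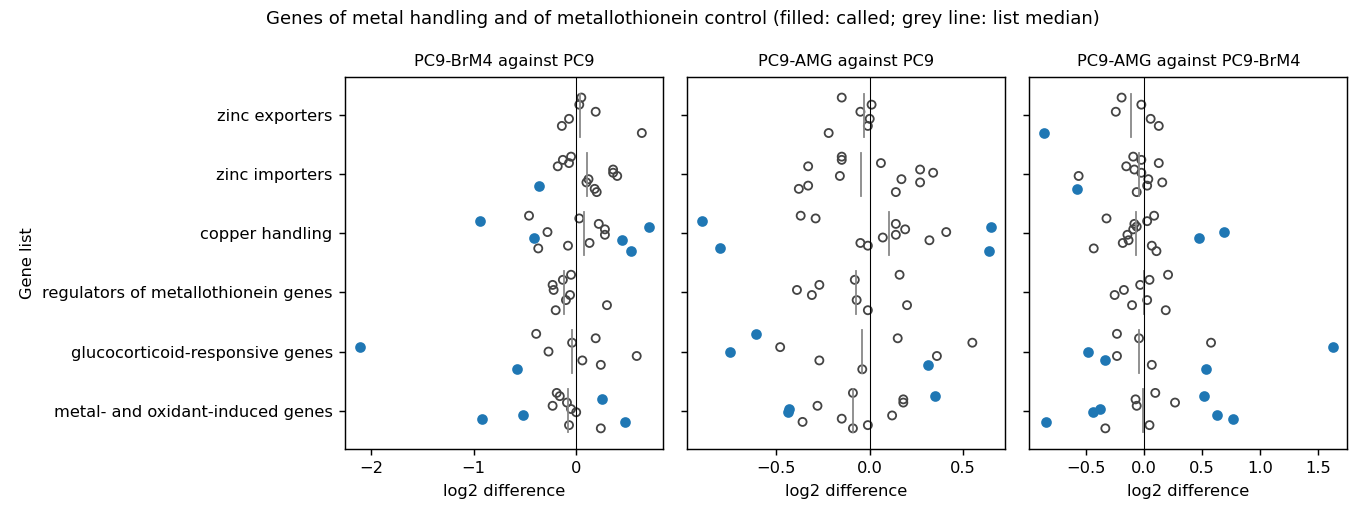
Difference of mean log2(TPM + 1) of each tested gene in 6 lists of metal handling and metallothionein control, in the 3 comparisons; filled points passed the adjusted p threshold and a grey line marks the list's median. The 8 regulators have no filled point, and KLF9 at -2.11 is the lowest filled point of PC9-BrM4 against PC9.

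The genes with a pattern most like the members were found by the root mean square difference between centred log2(TPM + 1) over the 6 libraries and the mean pattern of MT2A, MT1X, MT1E and MT1F, among 10518 other genes with a mean of at least 5 TPM. The median of those genes was 0.568, and the members' pattern itself had a size of 0.489. Nearest were RPS26 (0.0681), a ribosomal protein gene, and ALDH2 (0.0698), the mitochondrial aldehyde dehydrogenase. LY96 (0.0799), a partner of TLR4, followed, then GPSM3 (0.0973), SMKR1 (0.102), the ribosomal protein gene RPL41 (0.112), the parvin gene PARVB (0.113) and RABAC1 (0.115). For comparison, MT2A lay at 0.101 from the mean pattern, MT1X at 0.117, MT1E at 0.155 and MT1F at 0.259.

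RPS26 was at 382 and 391 TPM in PC9, 184 and 209 TPM in PC9-BrM4 and 417 and 468 TPM in PC9-AMG. ALDH2 was at 35.4 and 37.4 TPM in PC9, 18.7 and 20 TPM in PC9-BrM4 and 40.8 and 42.8 TPM in PC9-AMG. Both had the order PC9-BrM4, PC9, PC9-AMG with no overlap between lines. They were chosen for likeness to the members' pattern, so this order is no separate result. MT1A, at 0.582, was farther from the pattern than the median gene. The measure counts the size of differences as well as their direction. In PC9-BrM4 against PC9, MT1A differed in the same direction as MT2A but by more (log2 differences -2.19 and -1.01).

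Several keratins, markers of epithelial cells, were lower in PC9-BrM4, as the metallothionein TPM was, and EPCAM, CDH1 and EGFR were not. NAPSA, near the floor, was at 1.58 and 1.69 TPM in PC9. In PC9-BrM4 it was lower, at 1.16 and 0.839 TPM, without being called (-0.40, limma adjusted p = 0.503). KRT7 (-0.63), KRT18 (-0.61) and KRT19 (-0.47) fell there against PC9 (limma adjusted p = 0.00034, 0.000206 and 0.00117), whichever library was left out, and KRT8 was not called (-0.18, adjusted p = 0.0935). EPCAM (0.28), CDH1 (0.38) and EGFR (0.45) were higher in PC9-BrM4 than in PC9 without being called (limma adjusted p = 0.0535, 0.0711 and 0.154). They were the 3 epithelial genes called lower in PC9-AMG than in PC9-BrM4 (-0.31, -0.80 and -0.70, adjusted p = 0.0332, 0.00246 and 0.035). Another 2 were called higher (12.3% and 6.31% of all tested genes). The EPCAM and EGFR calls depended on single libraries, and the CDH1 call did not. In PC9-AMG, KRT7 (-0.30) and KRT19 (-0.36) fell against PC9. The KRT7 call was lost on leaving out any 1 of the 4 libraries (adjusted p from 0.0509 to 0.27), and that of KRT19 without PC9 library 1 (0.088), PC9 library 2 (0.114) or PC9-AMG library 2 (0.0781). KRT18 was higher in PC9-AMG than in PC9-BrM4 (0.60, adjusted p = 0.00028), whichever library was left out.

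Many markers of other cell types were listed at 0. The word mix in the library names is unexplained, and whether mouse RNA entered the libraries, and so the human TPM, is not known. Of 8 astrocyte markers, GFAP, GJB6, S100B and FABP7 were listed at 0 in all 6 libraries and 1, the folate enzyme gene ALDH1L1, passed the filter. The list summed to between 22.1 and 23.3 TPM in PC9, 18.3 and 19.9 TPM in PC9-BrM4 and 29.8 and 33.0 TPM in PC9-AMG, almost all of it ALDH1L1, which was higher in PC9-AMG than in PC9-BrM4 (0.68, limma adjusted p = 0.0057).

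Of 10 microglia markers 7 were listed at 0 throughout, AIF1, CX3CR1, P2RY12 and TMEM119 among them. The sums, nearly all CSF1R and ITGAM, were between 10.4 and 10.8 TPM in PC9, 16.5 and 18.2 TPM in PC9-BrM4 and 13.0 and 16.4 TPM in PC9-AMG, highest in the line with the lowest metallothionein TPM. ITGAM rose in PC9-BrM4 (0.96, limma adjusted p = 0.00746), whichever library was left out, and in PC9-AMG (0.79, adjusted p = 0.034), where the call was lost on leaving out any 1 of the 4 libraries (0.102 to 0.151). Of 6 fibroblast markers 1 passed the filter, COL1A1, and the sums were between 9.38 and 11.2 TPM in PC9, 16.1 and 17.9 TPM in PC9-BrM4 and 9.30 and 15.6 TPM in PC9-AMG. The part of other cells and of epithelial state in the metallothionein values was not tested.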

How the data were processed

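Per the labels' protocols, TRIzol extracts of the cancer cells gave 6 stranded mRNA libraries. The tools listed in the submitters' processing notes are HISAT2 2.1.0 and StringTie 1.3.4d, with build hg38; annotation, read length, filters and the treatment of reads that fit several genes are not given in the sources used here. Per the file headers, the deposited TPM, FPKM and Coverage (mean per-base read coverage, a signal not scaled to depth) were computed by the authors per gene and library. TPM of genes with more than 1 row was summed, giving 26485 genes. The members' TPM was identical in the table of all libraries.

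The test was also run on values simulated from the gene means and spread of these data. Genes that reached 1 TPM in 2 or more libraries entered the test on log2(TPM + 1) with limma 3.58.1 (R version 4.3.3). It used 1 mean per group over all 6 libraries and moderation with a variance trend (3 residual and 6.81 prior degrees of freedom). It was two-sided, with Benjamini-Hochberg adjustment over 14627 genes. A fold on the log2(TPM + 1) scale understates that of low genes. Transcript lengths (the longest GENCODE transcript of the gene's own type) were found for 93.8% of the tested genes. The members, the gene lists and the tests were chosen with earlier results of these data known. The text names the members, the other metallothionein genes, called genes of the metal, regulator, glucocorticoid and oxidant lists and within 1 Mb, a few uncalled genes with a known role or position, cell type markers, and the 8 genes nearest in pattern.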

Additional observations from a re-analysis of the deposited data

How the results depend on the processing

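The log2 ratio of the summed metallothionein TPM kept its sign under each setting run. It was 0.40 with FPKM in PC9-AMG against PC9 (main value 0.33), and 1.42 with FPKM and 1.36 with TPM rescaled without the 100 highest genes in PC9-AMG against PC9-BrM4 (1.31). MT1E in PC9-AMG against PC9 changed sign without PC9-AMG library 1 (-0.09) and with the length trend removed (-0.01), and MT1A there without PC9 library 1 (0.13) or PC9-AMG library 2 (0.03). With 1 library left out, MT1E ranged between -0.09 and 0.27 there and MT1A between -0.32 and 0.13. The members' other differences kept their sign, between -1.12 and -0.12 in PC9-BrM4 against PC9, 0.03 and 0.55 in PC9-AMG against PC9, and 0.40 and 1.58 in PC9-AMG against PC9-BrM4.

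The number of called genes was between 1143 and 2482 in PC9-BrM4 against PC9 (2389 with all), between 247 and 1445 in PC9-AMG against PC9 (1096) and between 1135 and 3046 in PC9-AMG against PC9-BrM4 (2720) when 1 library was left out, its partner being assumed to vary like the other groups. Without a filter it was 250 in PC9-AMG against PC9 and 1799 in PC9-AMG against PC9-BrM4, and without the variance trend 325 in PC9-AMG against PC9; the cause was not tested. Of 66 calls of listed genes in the 3 comparisons, 25 held whichever library was left out and 24 under every setting run. Among genes named in the results, median centring ended the calls of COX11, SQSTM1 and HERPUD1 in PC9-BrM4 against PC9. In PC9-AMG against PC9 it ended those of DUSP1, HSPA1A, HSPA1B, KRT7 and KRT19. In PC9-AMG against PC9-BrM4 it ended those of SLC39A10, ERRFI1, GLUL, HSPA1A, HSPA1B, EPCAM, EGFR and SLC6A2. Replicate numbers did not pair the libraries: the deviations of same-numbered libraries correlated between -0.0388 and 0.0292 across genes. With the replicate block, 2483, 1298 and 2905 genes were called, and 3 listed calls were lost (SQSTM1 and HERPUD1 in PC9-BrM4, DUSP1 in PC9-AMG, each against PC9). The unknown depth limits MT1G, MT1M and MT1H most, at or near 0.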
